A study of Mus musculus with 8 samples.

Results

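The urea cycle and amino acid catabolism genes are 44 enzymes and carriers by which the liver removes nitrogen and breaks down amino acids. They were chosen by symbol from knowledge of these pathways, and all 44 were found among the 35638 genes of the table. Their RNA was measured by RNA sequencing of frozen liver tissue from mice of a C57/B6 and 129 mix, aged 90 days after birth. In 4 samples the genotype was Arid1a Fl/Fl; Alb-cre (KO). Cre recombinase made from the albumin promoter is meant to delete the floxed gene in hepatocytes. Which cells of the liver lost or kept the gene was not measured here. The KO samples were set against 4 Arid1a Fl/Fl samples (WT), which carry the same floxed alleles and for which the labels list no Cre. The product of Arid1a is the large subunit by which SWI/SNF, a complex that remodels chromatin, contacts DNA. All values are FPKM, fragments scaled to the length of the transcript and to the size of the library, so levels of different genes are given per length.

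Amino acids that are not needed for protein lose their nitrogen by transamination to glutamate and by deamination, and the ammonia is built into urea by hepatocytes, those around the portal vein above all. The carbon skeletons go to glucose, ketone bodies or the citric acid cycle. Many of these enzymes are induced by glucagon and glucocorticoids in fasting or on a protein-rich diet, and most of them are far more abundant in hepatocytes than in any other cell of the liver.

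Arid1a was at 2.70, 2.86, 3.46 and 2.59 FPKM in KO 1 to KO 4, against 5.16, 8.38, 4.0 and 4.11 FPKM in WT 1 to WT 4. The KO libraries were all lower than the WT libraries, yet the difference did not pass the test over all genes (log2 change of FPKM + 1 of -0.67 ± 0.23 SE, limma adjusted p = 0.316). The sums of 9 hepatocyte markers ran from 36932 to 55682 FPKM in KO and from 33788 to 48606 FPKM in WT, and 0 of the 9 passed the test. Markers of other liver cells were far lower, and most were higher in KO. The sum of 11 macrophage markers was 23.2 to 166 FPKM in KO and 7.25 to 16.5 FPKM in WT, with a higher mean in KO for 11 of 11 and 0 passing the test. KO 2 had the lowest of these KO sums, at 23.2 FPKM. Without KO 2 the test was passed by 10 of the 11, against 0.813% of all genes tested called higher. Leaving out the KO library lowest for these same markers favours such calls. Without any other single library, 0 of these markers passed. The sum of 9 endothelial markers was 12 to 23.0 FPKM in KO and 1.95 to 7.26 FPKM in WT, and that of 10 stellate cell markers was 9.69 to 23.9 FPKM in KO and 1.93 to 6.30 FPKM in WT. Bile duct markers summed to 0.527 to 6.84 FPKM in KO and 0.269 to 0.792 FPKM in WT, and lymphocyte markers to 0.340 to 1.34 FPKM in KO and 0.0726 to 0.295 FPKM in WT. The part of these cells in the results below was not tested, and in bulk tissue fewer cells of a type cannot be told apart from less RNA per cell. Steps between low FPKM values put the depth at about 14375000 ± 741000 reads in KO and 13025000 ± 613000 reads in WT (SD, n = 4 each). The labels do not say that the samples came from separate animals, so p-values measure no more than the spread among these libraries, some or all of which could be technical.

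Most of the amino acid enzymes had close means in KO and WT. The test was passed by 0 of the 44 in either direction (limma, adjusted over the 11266 genes with a mean of at least 1 FPKM, threshold 0.05). Among all genes tested, 46 (0.408%) were higher and 40 (0.355%) were lower in KO. An unadjusted p under 0.05 was reached by 5 of the 44 genes (11.4%), against 9.81% of all genes tested, which is near the background. These 5 were the serine dehydratase Sds, its relative Sdsl, the mitochondrial alanine aminotransferase Gpt2, the kynureninase Kynu and Bckdhb, a subunit of the branched-chain keto acid dehydrogenase. Every KO library lay above every WT library for 2 of the 44 (4.55%), Sds and Gpt2, against 3.05% of all genes tested. Kynu was the 1 member (2.27%) with every KO library below every WT library, against 3.18% of all genes tested. These counts moved with the scaling of the libraries. With equal sums of FPKM, KO lay above WT for 0 of the 44, against 2.01% of all genes tested, and below WT for 3 (Kynu, Bckdhb and Mccc2), against 5.01%. With median ratio scaling, KO lay above WT for 1 (Sds), against 4.10% of all genes tested, and below WT for 1 (Kynu), against 3.28%. The median log2 change was 0.10 over the 44 genes, 25 of them positive and 19 negative, and -0.03 over all genes tested. Of all genes tested, 45.5% had a positive change. The count of positive members was 21 with equal sums of FPKM, 27 with median ratio scaling and 31 without KO 1.

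The intervals of the 44 genes were about as wide as those of other genes. The KO and WT means were within 1.5-fold of each other for 39 of the 44 genes (88.6%), against 79.9% of all genes tested. The 95% interval of the log2 change stayed within 1 in either direction for 34 of the 44 (77.3%), against 71.2% of all genes tested. The smallest absolute log2 change among the 86 genes that passed the test was 0.84 and their median was 1.68. Of the 44, only Sds had an estimate above that smallest value. In simulated data with the spread of these libraries, the test found 38 of 100 genes changed by a log2 of 1. Changes of that size could thus be missed. The changed genes were drawn at random from all genes tested, so the rate for the 44 may differ.

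**Figure D1:**
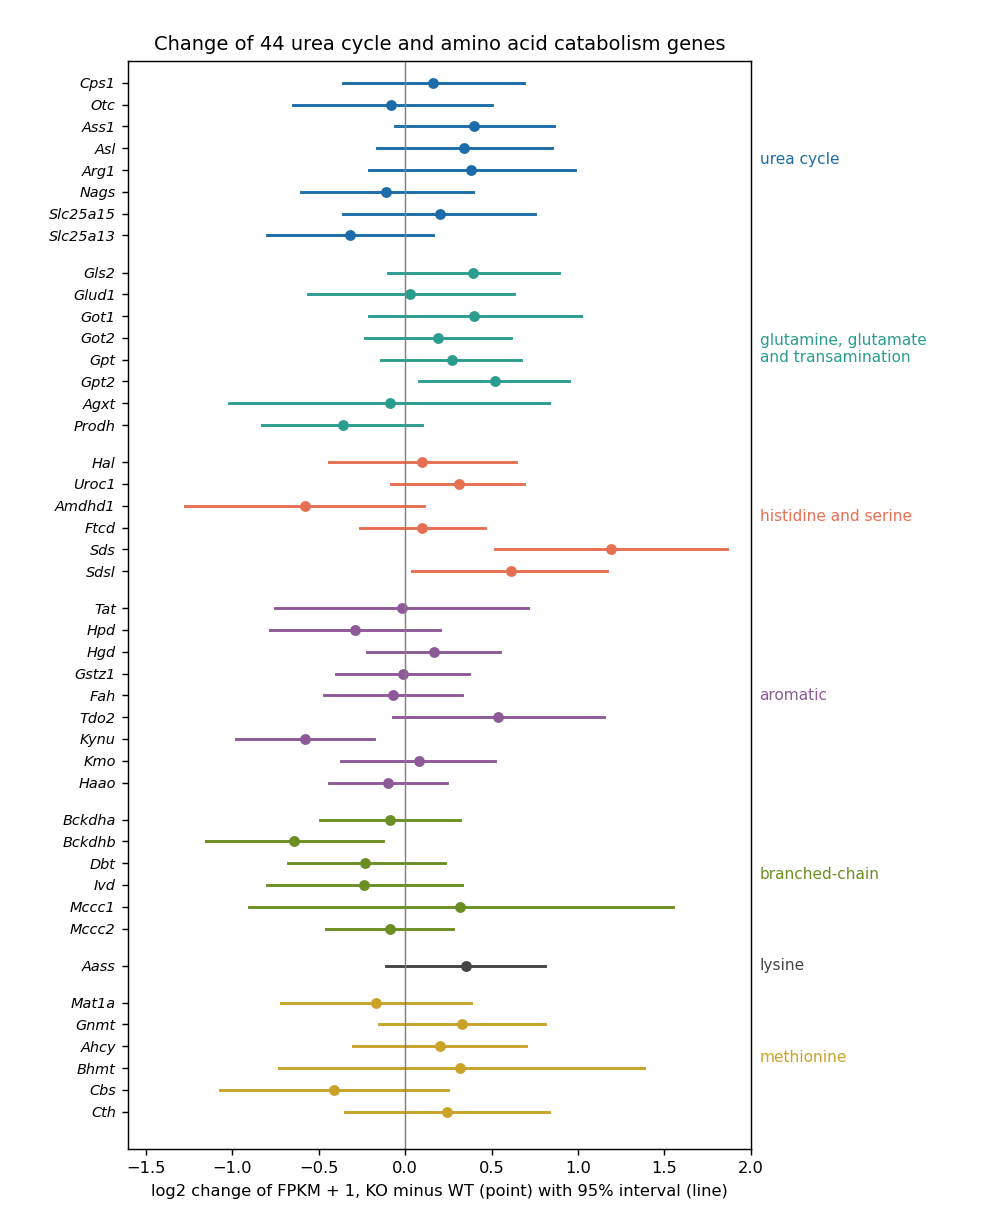
Log2 change of FPKM + 1, KO minus WT, for the 44 genes, in rows grouped by pathway. Points are limma estimates from 4 KO and 4 WT libraries and lines are unadjusted 95% intervals. Sds lies farthest right at 1.19 and Bckdhb farthest left at -0.64.

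The promoters of Gpt2 and Bckdhb are shown because they are the 2 of the 5 genes with an unadjusted p under 0.05 whose start is in the RefSeq table used (GRCm38.p6). Each line holds the 250 bases before the start of the gene, 5′ to 3′ on the + strand, at chr8:85492326-85492575 for Gpt2 and chr9:83924887-83925136 for Bckdhb. Capitals mark AGAACA, a core of the glucocorticoid receptor motif.
Gpt2: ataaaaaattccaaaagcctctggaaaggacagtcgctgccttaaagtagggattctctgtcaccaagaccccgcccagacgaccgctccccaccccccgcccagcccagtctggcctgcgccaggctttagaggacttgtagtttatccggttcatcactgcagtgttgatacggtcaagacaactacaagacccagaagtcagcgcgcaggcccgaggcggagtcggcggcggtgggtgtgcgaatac
Bckdhb: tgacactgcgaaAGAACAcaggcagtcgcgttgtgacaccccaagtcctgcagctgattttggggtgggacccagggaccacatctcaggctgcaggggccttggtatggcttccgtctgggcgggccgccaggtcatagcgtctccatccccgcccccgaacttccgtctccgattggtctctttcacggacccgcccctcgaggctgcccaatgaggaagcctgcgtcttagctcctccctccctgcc
Both windows were richer in G and C, at 57.6% for Gpt2 and 63.2% for Bckdhb, than the median of 52.0% over all promoters in the table. Of the 44 genes, 33 had an entry. AGAACA, read on both strands, was in 3 of the 33 windows (9.09%), those of Agxt, Bckdhb and Haao, and in 16.2% of 27025 windows of the same length. The C/EBP motif TTGCNNAA was in 3 (9.09%; Aass, Hal and Hgd), against 9.55% of all windows. TGACG, the core of the cyclic AMP response element, was in 4 (12.1%), against 17.9%, and the TATA box TATAAA was in 5 (15.2%), against 13%. These matches describe letters in the window and not binding.

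The 8 genes of the urea cycle comprise its 5 enzymes, the synthase of an activator and 2 mitochondrial carriers, and 0 of the 8 passed the test. Their summed level was 2853 ± 667 FPKM in KO and 2303 ± 386 FPKM in WT (SD, n = 4 each). Cps1, the mitochondrial synthase of carbamoyl phosphate that brings ammonia into the cycle, was at 524, 756, 721 and 927 FPKM in KO 1 to KO 4, against 503, 672, 866 and 572 FPKM in WT 1 to WT 4. The groups overlapped over most of their range, and the log2 change was 0.16 with a 95% interval of -0.36 to 0.69 (limma adjusted p = 0.910). Otc, which joins carbamoyl phosphate to ornithine, averaged 74.1 ± 20.9 FPKM in KO and 77.0 ± 17.1 FPKM in WT (mean ± SD, n = 4; log2 change -0.08, limma adjusted p = 0.969).

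The cytosolic enzymes that follow had higher means in KO, with overlapping libraries, and 0 of the 3 passed the test. Ass1, which condenses citrulline with aspartate, was at 857, 1045, 1252 and 1467 FPKM in KO 1 to KO 4, against 816, 913, 989.9 and 742 FPKM in WT 1 to WT 4. KO 2, KO 3 and KO 4 lay above all WT libraries and KO 1 within them, and the log2 change was 0.40 ± 0.21 (SE; 95% interval -0.06 to 0.86, limma adjusted p = 0.600). Asl, which splits argininosuccinate into arginine and fumarate, was at 144, 165, 213 and 191 FPKM in KO 1 to KO 4, against 135, 164, 173 and 96.4 FPKM in WT 1 to WT 4. KO 3 and KO 4 were above all WT libraries and KO 1 and KO 2 among them (log2 change 0.34, limma adjusted p = 0.721). Arg1, the arginase that releases urea, was at 379.8, 483, 692 and 800.2 FPKM in KO 1 to KO 4, against 386, 448, 571 and 354 FPKM in WT 1 to WT 4. Its KO libraries spread from within the WT range to well above it (log2 change 0.38, 95% interval -0.21 to 0.98, limma adjusted p = 0.749).

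Nags makes N-acetylglutamate, the activator without which Cps1 is inactive. It averaged 17.1 ± 3.81 FPKM in KO and 18.4 ± 3.79 FPKM in WT (mean ± SD, n = 4; log2 change -0.11, limma adjusted p = 0.945). The ornithine and citrulline carrier Slc25a15 averaged 70.7 ± 18.1 FPKM in KO and 61.5 ± 15.7 FPKM in WT (log2 change 0.20, limma adjusted p = 0.890). Citrin, the aspartate and glutamate carrier encoded by Slc25a13, averaged 36.4 ± 7.68 FPKM in KO and 45.6 ± 8.37 FPKM in WT (log2 change -0.32, limma adjusted p = 0.725). The carriers had estimates of opposite sign, and for both the groups overlapped.

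Among 8 genes that handle glutamine, glutamate and amino group transfer, 6 had a positive and 2 a negative change, and 0 passed the test. Gpt2, the mitochondrial alanine aminotransferase, was at 99.7, 97.4, 127 and 85.3 FPKM in KO 1 to KO 4, against 80.1, 71.3, 79.1 and 54.8 FPKM in WT 1 to WT 4. Every KO library was above every WT library, by a small margin between KO 4 and WT 1. This separation was lost with equal sums of FPKM, where WT 3 was above KO 1, KO 2 and KO 4, and with median ratio scaling, where WT 1 was above KO 4. Its log2 change was 0.52 ± 0.19 (SE; 95% interval 0.08 to 0.95) with a limma adjusted p of 0.389. Gpt, the cytosolic form of the same enzyme, averaged 77.6 ± 14.1 FPKM in KO and 63.7 ± 5.30 FPKM in WT (mean ± SD, n = 4; log2 change 0.27, limma adjusted p = 0.736), with overlapping libraries.

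The liver glutaminase Gls2, which frees ammonia from glutamine, was at 90.9, 123, 126 and 133 FPKM in KO 1 to KO 4, against 88.1, 96.2, 115 and 63.1 FPKM in WT 1 to WT 4. All KO libraries but KO 1 exceeded the WT libraries (log2 change 0.39, limma adjusted p = 0.637). Glud1, the glutamate dehydrogenase, was nearly level at 181 ± 59.2 FPKM in KO and 175 ± 47.0 FPKM in WT (log2 change 0.03, limma adjusted p = 0.989). The cytosolic aspartate aminotransferase Got1 averaged 130.1 ± 44.1 FPKM in KO and 97.4 ± 29.2 FPKM in WT (log2 change 0.40, limma adjusted p = 0.739). Its mitochondrial counterpart Got2 averaged 92.8 ± 18.2 FPKM in KO and 80.4 ± 8.52 FPKM in WT (log2 change 0.19, limma adjusted p = 0.855). Neither aminotransferase of aspartate had groups that separated.

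Agxt, which transfers the amino group of alanine to glyoxylate, was at 36.3, 136, 90.0 and 109 FPKM in KO 1 to KO 4, against 71.3, 103, 60.3 and 142 FPKM in WT 1 to WT 4. KO 1 had the lowest value of the 8 and WT 4 the highest, and the group means were almost equal (log2 change -0.09, limma adjusted p = 0.979). Prodh, the enzyme that opens proline breakdown, averaged 28.4 ± 4.29 FPKM in KO and 37.2 ± 8.57 FPKM in WT (mean ± SD, n = 4; log2 change -0.36, limma adjusted p = 0.643).

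Serine breakdown held the largest change of the 44 genes. Sds (chromosome 5, 120476526 to 120483932, + strand, GRCm38) encodes serine dehydratase, which turns serine into pyruvate and ammonia and feeds glucose synthesis. It was at 218, 201, 359 and 274 FPKM in KO 1 to KO 4, against 110.4, 92.6, 193 and 79.3 FPKM in WT 1 to WT 4. All KO libraries were above all WT libraries, with KO 2 and WT 3 only slightly apart. The means were 263 ± 71.1 FPKM in KO and 119 ± 51.1 FPKM in WT (SD, n = 4 each), a ratio of 2.21.

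The log2 change of Sds was 1.19 ± 0.30 (SE; 95% interval 0.52 to 1.86), at percentile 98.6 of the changes of all genes tested. It missed the threshold (limma adjusted p = 0.140), and without single libraries the adjusted p ran from 0.0647 to 0.318. With the libraries scaled to equal sums the change was 1.07 (limma adjusted p = 0.277), and WT 3 then lay above KO 1 and KO 2. The annotation places the antisense gene Gm15690 and part of Plbd2 on the opposite strand of Sds. Whether the counting used strand is not given in the sources used here, so reads of these genes cannot be told apart from those of Sds. Other members also overlap annotated genes, among them Bckdhb with 3 and Mccc1 with 4, and the same limit holds for them.

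Sdsl, a neighbour of Sds that encodes a related dehydratase, was much less abundant, at 3.56, 2.99, 4.85 and 4.85 FPKM in KO 1 to KO 4, against 3.59, 1.76, 2.93 and 1.32 FPKM in WT 1 to WT 4. WT 1 lay among the KO libraries (log2 change 0.61, 95% interval 0.04 to 1.17, limma adjusted p = 0.465). With a pseudocount of 1 FPKM, the change of so low a gene is understated.

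**Figure D2:**
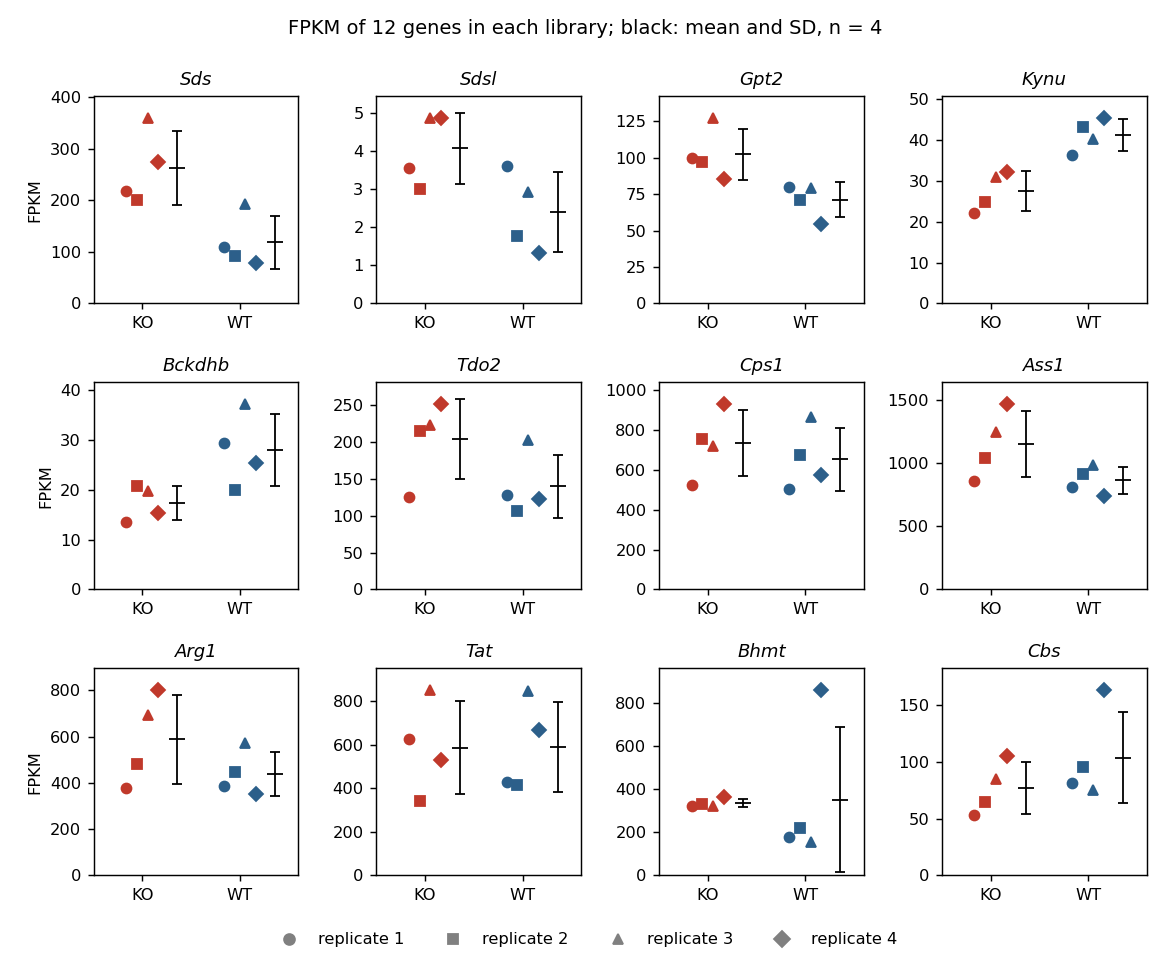
FPKM of 12 of the 44 genes in each library (linear axes from 0), with KO left and WT right in each panel. Coloured symbols are the 4 libraries of a group by replicate number, and black marks are the mean and SD. The KO and WT libraries do not overlap for Sds, Gpt2 and Kynu, and WT 4 stands far above the other WT libraries for Bhmt.

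Histidine is broken down to glutamate in steps catalysed by Hal, Uroc1, Amdhd1 and Ftcd, and 0 of these 4 passed the test. Hal, which removes the amino group of histidine as ammonia, was at 36.8, 52.2, 58.3 and 51.7 FPKM in KO 1 to KO 4, against 41.1, 70.2, 37.5 and 39.9 FPKM in WT 1 to WT 4. A high value of WT 2 brought the group means close together (log2 change 0.10, limma adjusted p = 0.951). The urocanase Uroc1 averaged 112 ± 12.7 FPKM in KO and 91.0 ± 13.6 FPKM in WT (mean ± SD, n = 4; log2 change 0.31, limma adjusted p = 0.642).

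Amdhd1, the imidazolonepropionase, was the 1 gene of histidine and serine breakdown with a negative change. It was at 18, 33.8, 21.4 and 37.1 FPKM in KO 1 to KO 4, against 41.7, 40.2, 25.2 and 59.8 FPKM in WT 1 to WT 4. The lowest WT library lay within the KO range (log2 change -0.58, 95% interval -1.27 to 0.11, limma adjusted p = 0.612). Ftcd, which hands the last one-carbon unit to folate, averaged 94.5 ± 12.8 FPKM in KO and 87.7 ± 6.16 FPKM in WT (log2 change 0.10, limma adjusted p = 0.925). Enzymes that act in succession thus had estimates of both signs, none of which passed the test.

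Aromatic amino acids are degraded by separate routes for tyrosine and tryptophan, and 0 of the 9 genes here passed the test. For each gene of tyrosine breakdown the KO and WT libraries overlapped. Tat, the glucocorticoid-inducible tyrosine aminotransferase, was at 628, 339.8, 849.8 and 532 FPKM in KO 1 to KO 4, against 427, 417, 847 and 669 FPKM in WT 1 to WT 4. Libraries of both groups ranged over about the same values (log2 change -0.02, limma adjusted p = 0.997). Hpd, the next enzyme, averaged 490.4 ± 120.2 FPKM in KO and 592 ± 97.9 FPKM in WT (mean ± SD, n = 4; log2 change -0.29, limma adjusted p = 0.778).

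Hgd, Gstz1 and Fah carry the route on to fumarate and acetoacetate. Their means differed by less than the SD of the KO libraries, though for Hgd by more than that of WT. The oxygenase Hgd averaged 157 ± 23.7 FPKM in KO and 139 ± 11.4 FPKM in WT (log2 change 0.17, limma adjusted p = 0.862). Gstz1, an isomerase, averaged 121 ± 20.2 FPKM in KO and 121 ± 9.46 FPKM in WT (log2 change -0.01, limma adjusted p = 0.995). Fah, the hydrolase that ends the route, averaged 173 ± 27.7 FPKM in KO and 180.3 ± 17.7 FPKM in WT (log2 change -0.07, limma adjusted p = 0.956). Of the whole tyrosine route, Hpd had the estimate farthest from 0.

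The tryptophan route showed estimates of opposite sign at its start and at a later step. Tdo2, the hepatic dioxygenase that opens the tryptophan ring, was at 126, 215, 223 and 251 FPKM in KO 1 to KO 4, against 128, 107, 203 and 122 FPKM in WT 1 to WT 4. KO 2, KO 3 and KO 4 exceeded all WT libraries and KO 1 did not (log2 change 0.54, 95% interval -0.07 to 1.15, limma adjusted p = 0.582). Kynu (chromosome 2, 43555329 to 43682715, + strand, GRCm38), the kynureninase, cleaves kynurenine and its hydroxylated form on the way to NAD. It was at 22.0, 24.9, 30.9 and 32.0 FPKM in KO 1 to KO 4, against 36.3, 43.2, 40.2 and 45.2 FPKM in WT 1 to WT 4. All KO libraries were below all WT libraries, and the spread within each group was small.

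Kynu averaged 27.5 ± 4.83 FPKM in KO and 41.2 ± 3.86 FPKM in WT (SD, n = 4 each), a ratio of 0.666. Its log2 change was -0.58 ± 0.18 (SE; 95% interval -0.98 to -0.18, limma adjusted p = 0.243), and without single libraries the adjusted p ran from 0.270 to 0.437. The enzymes beside it in the route had estimates near 0. Kmo, which hydroxylates kynurenine, averaged 29.7 ± 4.70 FPKM in KO and 28.3 ± 5.92 FPKM in WT (log2 change 0.08, limma adjusted p = 0.957). Haao, which makes the precursor of quinolinic acid, averaged 115 ± 7.86 FPKM in KO and 124 ± 12.9 FPKM in WT (log2 change -0.10, limma adjusted p = 0.918).

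Branched-chain amino acids are mostly transaminated outside the liver, and the liver oxidises their keto acids through the branched-chain keto acid dehydrogenase. Of the 6 genes of this route, 5 had a negative change and 0 passed the test. Bckdhb (chromosome 9, 83925145 to 84124240, + strand, GRCm38), the E1 beta subunit, was at 13.5, 20.8, 19.7 and 15.4 FPKM in KO 1 to KO 4, against 29.4, 20, 37.1 and 25.3 FPKM in WT 1 to WT 4. KO 2 lay just above WT 2, and all other KO libraries were below all WT libraries. Its log2 change was -0.64 ± 0.23 (SE; 95% interval -1.15 to -0.13), the most negative of the 44 genes, with a limma adjusted p of 0.350.

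The partner subunits of Bckdhb were closer between the groups. Bckdha, the E1 alpha subunit, averaged 35.3 ± 4.84 FPKM in KO and 37.8 ± 6.18 FPKM in WT (mean ± SD, n = 4; log2 change -0.09, limma adjusted p = 0.944). Dbt, the E2 core, averaged 11.6 ± 2.79 FPKM in KO and 13.5 ± 1.38 FPKM in WT (log2 change -0.23, 95% interval -0.68 to 0.23). The isovaleryl-CoA dehydrogenase Ivd, which acts next on leucine, averaged 17.5 ± 5.45 FPKM in KO and 20.5 ± 4.54 FPKM in WT (log2 change -0.24, limma adjusted p = 0.870). The difference between the subunits in their change was not tested.

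The subunits of methylcrotonyl-CoA carboxylase, also of leucine breakdown, differed in how evenly they were measured. Mccc1 was at 1.96, 11, 8.40 and 8.60 FPKM in KO 1 to KO 4, against 2.49, 7.67, 12 and 2.32 FPKM in WT 1 to WT 4. KO 1, WT 1 and WT 4 were several times lower than the rest, in both groups, and the interval was wide (log2 change 0.32, 95% interval -0.90 to 1.55, limma adjusted p = 0.932). Mccc2 was even across libraries, at 12.3 ± 0.413 FPKM in KO and 13.3 ± 2.14 FPKM in WT (log2 change -0.09, limma adjusted p = 0.939). Lysine breakdown was represented by Aass, which carries out its opening steps. Aass was at 44.7, 65.3, 68.8 and 57.3 FPKM in KO 1 to KO 4, against 39.7, 38.8, 59.0 and 47.0 FPKM in WT 1 to WT 4. WT 3 and WT 4 lay within the range of the KO libraries (log2 change 0.35, limma adjusted p = 0.657).

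Methionine is activated to S-adenosylmethionine, used in methyl transfers and either remade from homocysteine or passed to cysteine, and 0 of the 6 genes of this cycle passed the test. Mat1a, the hepatic synthase of S-adenosylmethionine, averaged 523 ± 138 FPKM in KO and 577 ± 108 FPKM in WT (mean ± SD, n = 4; log2 change -0.17, limma adjusted p = 0.912). Gnmt, which uses up surplus methyl groups on glycine, averaged 932 ± 217 FPKM in KO and 733 ± 116 FPKM in WT (log2 change 0.33, limma adjusted p = 0.708). Ahcy, the S-adenosylhomocysteine hydrolase, averaged 258 ± 67.5 FPKM in KO and 219.7 ± 31.3 FPKM in WT (log2 change 0.20, limma adjusted p = 0.874). None of the 3 had groups that separated.

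Bhmt, which remethylates homocysteine with betaine, rested on 1 library. It was at 324, 329.8, 324 and 365 FPKM in KO 1 to KO 4, against 177, 218, 155 and 858 FPKM in WT 1 to WT 4. The KO libraries were close together and above all WT libraries except WT 4, which was the highest of the 8. The ratio of the means was 0.953 while the log2 change was 0.32 (95% interval -0.73 to 1.38, limma adjusted p = 0.911), so the 2 measures differ in direction. Without WT 4 the log2 change was 0.88 with a limma adjusted p of 0.0871. Leaving out the WT library highest for this gene raises the change by that choice.

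Cbs, which condenses homocysteine with serine, was at 53.1, 64.4, 84.6 and 105 FPKM in KO 1 to KO 4, against 81.8, 95.1, 75.4 and 163 FPKM in WT 1 to WT 4. WT 4 was the highest library here too, and the other libraries overlapped (log2 change -0.41, limma adjusted p = 0.763). Cth, which releases cysteine from cystathionine, was at 73.7, 131, 133 and 136 FPKM in KO 1 to KO 4, against 76.9, 91.1, 90.3 and 143 FPKM in WT 1 to WT 4. KO 1 lay far below the other KO libraries and WT 4 above all the rest (log2 change 0.24, limma adjusted p = 0.874).

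The levels of the 44 genes covered a wide range in both groups. Ass1 had the highest mean over the 8 libraries, 1010.3 FPKM, which placed it at rank 62 of all genes in the table, followed by Gnmt at 833 FPKM and Cps1 at 693 FPKM. The libraries of these neighbours in the order overlapped. Tat at 589 FPKM, Mat1a at 550 FPKM, Hpd at 541 FPKM and Arg1 at 514 FPKM came next and also overlapped. The lowest means were those of Mccc1 at 6.8 FPKM and Sdsl at 3.23 FPKM. Within a group, the median coefficient of variation of the 44 genes was 22.5% in KO and 21.4% in WT. The genes of the branched-chain route were low as a group, with a summed level of 102 ± 14.6 FPKM in KO and 119 ± 9.17 FPKM in WT (SD, n = 4 each). Those of histidine and serine breakdown summed to 551 ± 94.5 FPKM in KO and 389 ± 33.5 FPKM in WT.

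**Figure D3:**
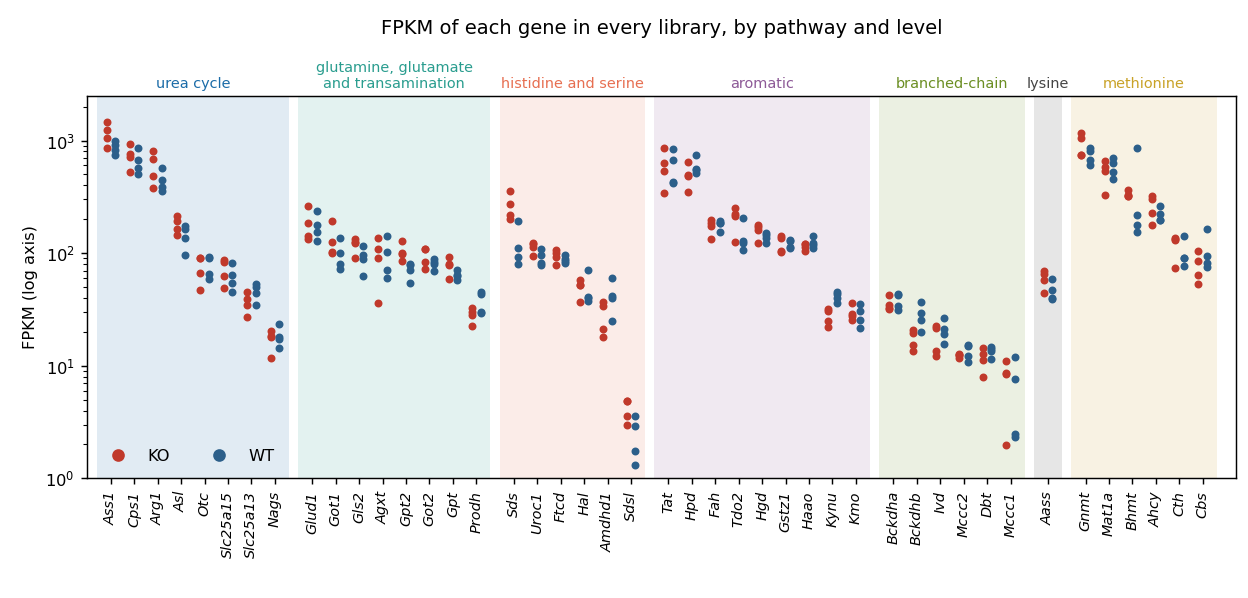
FPKM (log axis) of the 44 genes in every library, ordered by mean level within each pathway. Each point is 1 library, with 4 KO points left of 4 WT points for each gene. Ass1 tops the urea cycle at a mean of 1010.3 FPKM, and Sdsl is the lowest of all at 3.23 FPKM.

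Summed, the 44 genes held 1.14 to 1.82% of the total FPKM of a library. The share was 1.14, 1.33, 1.64 and 1.63% in KO 1 to KO 4, against 1.2, 1.27, 1.82 and 1.30% in WT 1 to WT 4. KO 1 was the library that most often held the lowest value of its group, for 34 of the 44 genes (77.3%), against 40.1% of all genes tested. It was also the lowest of all 8 libraries for 19 of the 44 (43.2%), against 22.8% of all genes tested, and the highest for 0. The median deviation of KO 1 from the gene means was -0.24 (log2) over the 44 genes and -0.15 over all genes tested. WT 1 was next, at -0.18 over the 44 genes and -0.05 over all genes tested. KO 4 was the highest KO library for 18 of the 44 (40.9%), against 45.5% of all genes tested.

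**Figure D4:**
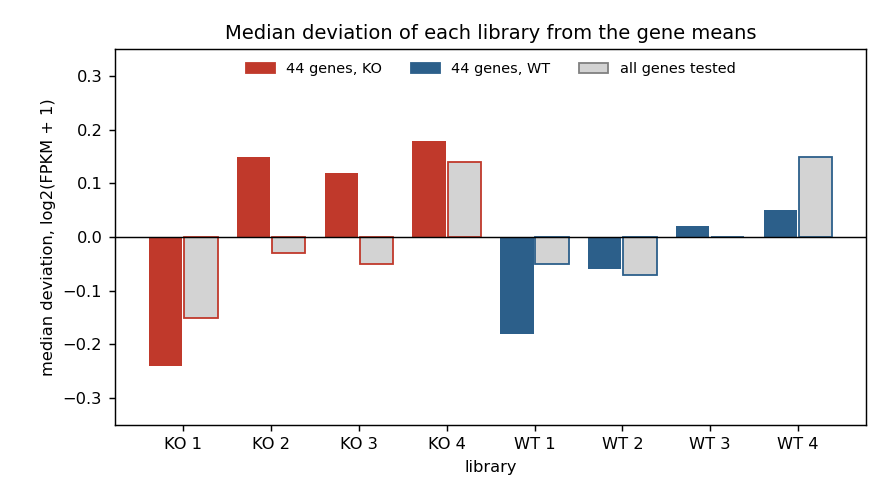
Median deviation of each library from the gene means, in log2(FPKM + 1), for the 44 genes (filled bars) and for all genes tested (grey bars). KO 1 and WT 1 had the lowest medians over the 44 genes, at -0.24 and -0.18.

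KO 1 was singled out because it was lowest for most of these genes, so leaving it out raises their KO means by that choice. Leaving out any other single library gave 2 or 3 of the 44 with every KO library above every WT library. An unadjusted limma p under 0.05 was then reached by 3 to 8. With KO 1 left out, more of the genes separated, and 0 of the 44 passed the test. The KO libraries then lay above every WT library for 8 of the 44 genes, against 4.99% of 11267 genes tested. These were Ass1, Gls2, Gpt, Gpt2, Uroc1, Sds, Hgd and Tdo2. An unadjusted p under 0.05 was reached by 9 of the 44, against 8.93% of all genes tested, among them Arg1 with a log2 change of 0.57 (limma adjusted p = 0.536) and Ass1 with 0.53 (limma adjusted p = 0.437). The median change of the 44 genes was then 0.26, against 0.01 over all genes tested. With all 8 libraries scaled to equal sums of FPKM, the median was -0.01 over the 44 genes and -0.12 over all genes tested. With all 8 unscaled, these medians were 0.10 and -0.03.

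**Figure D5:**
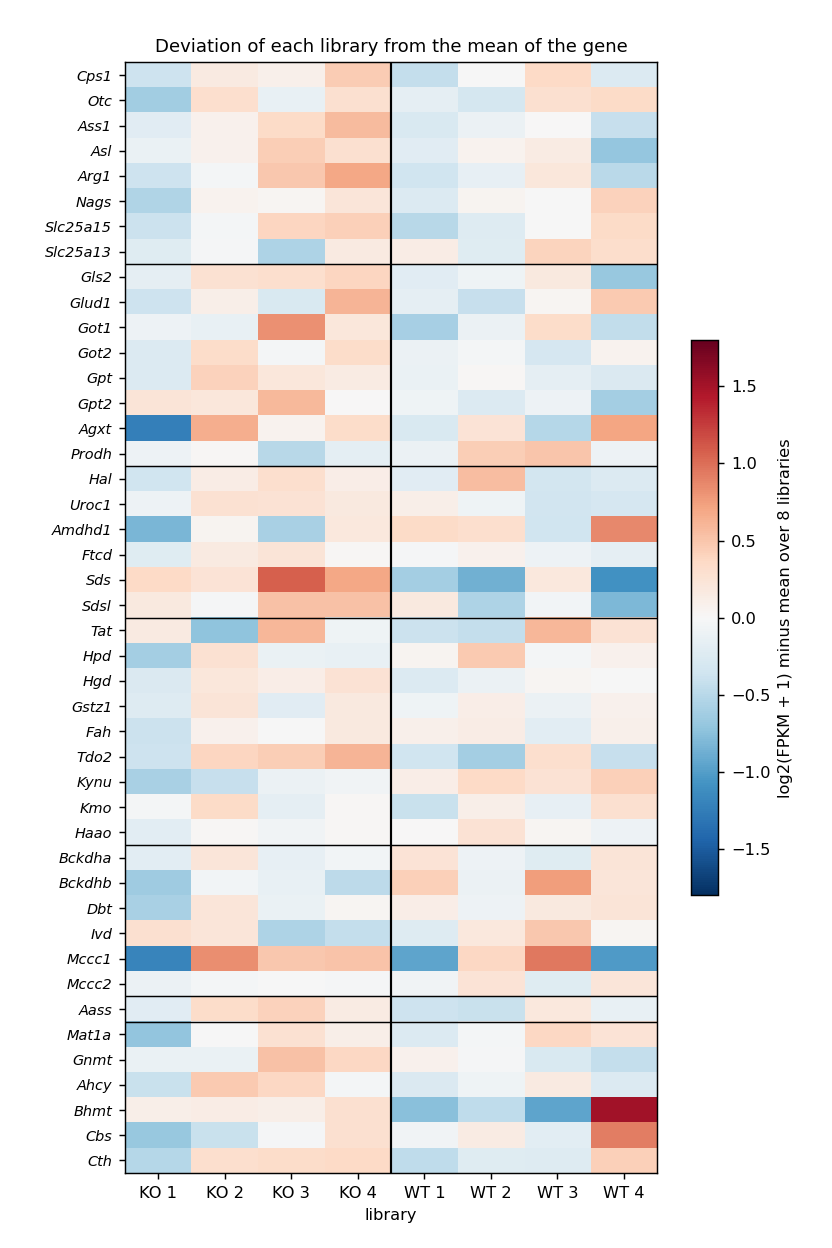
Deviation of each library from the mean of the gene over the 8 libraries, in log2(FPKM + 1), red above and blue below, with KO libraries left of the vertical line and WT libraries right. Genes are grouped by pathway, as the horizontal lines show. KO 1 is below the mean for most genes, and the cell of Bhmt in WT 4 is the deepest red.

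Other genes of amino acid metabolism and transport gave the same picture apart from Oat. Of 102 genes listed, 99 were in the table and 81 were tested. Of these 81, 0 were higher and 1 was lower in KO, against 0.408% and 0.355% of all genes tested. The median log2 change of the 81 was 0.02, with 42 positive and 39 negative. Oat, the ornithine aminotransferase of hepatocytes next to the central vein, was at 20.7, 20.7, 10.9 and 13.8 FPKM in KO 1 to KO 4, against 58.8, 68.3, 66.6 and 149 FPKM in WT 1 to WT 4. The groups were far apart, with WT 4 the highest. Oat fell to 16.5 ± 4.96 FPKM in KO, against 85.6 ± 42.3 FPKM in WT (mean ± SD, n = 4; log2 change -2.25 ± 0.32 SE, limma adjusted p = 0.0162). The call was lost without KO 3 and without KO 4, with limma adjusted p of 0.0562 and 0.0586. It was also lost with no filter on low values, at 0.0695, and with the replicate number as a block, at 0.0876.

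The other listed genes are given for context, the following 4 being those with the smallest p after Oat. Ccbl1, the kynurenine aminotransferase that competes with Kynu for kynurenine, averaged 58.2 ± 9.86 FPKM in KO and 28.1 ± 7.56 FPKM in WT (mean ± SD, n = 4; log2 change 1.04, limma adjusted p = 0.0981). The taurine synthesis enzyme Csad averaged 1.29 ± 0.604 FPKM in KO and 7.97 ± 7.69 FPKM in WT (log2 change -1.67, limma adjusted p = 0.225). Slc43a1, a transporter of large neutral amino acids, averaged 3.90 ± 2.11 FPKM in KO and 1.13 ± 0.517 FPKM in WT (log2 change 1.14, limma adjusted p = 0.167). Gldc, of the glycine cleavage system, averaged 45.8 ± 13.9 FPKM in KO and 25.1 ± 13.6 FPKM in WT (log2 change 0.92, limma adjusted p = 0.369). The groups did not overlap for Ccbl1, Csad and Slc43a1. Among all 81 tested, every KO library lay above every WT library for 3 and below for 3. The shares among all genes tested were 3.05% and 3.18%.

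Several urea cycle and amino acid enzymes mark hepatocytes near the portal vein, and these could be set beside genes of the opposite zone. The 7 of the 44 genes that are in a list of 18 periportal genes were Sds, Hal, Gls2, Ass1, Cps1, Asl and Arg1, with log2 changes between 0.10 and 1.19 and 0 passing the test. With equal sums of FPKM, Hal was at -0.01. In the whole periportal list 16 of 18 changes were positive, with a median of 0.23. Of all genes tested, 45.5% had a positive change. Of the 9 hepatocyte markers, 7 were positive and 2 negative, with a median of 0.16, and Alb is in both lists. The periportal list was chosen with earlier results of these data known. In it 1 gene passed the test, while 0.408% of all genes tested were called higher. This was Aldh1b1, an aldehyde dehydrogenase, at 63.5 ± 13.7 FPKM in KO and 17.8 ± 3.85 FPKM in WT (mean ± SD, n = 4; log2 change 1.78, limma adjusted p = 0.00649). Cdh1, the epithelial cadherin, had an estimate of the other sign, at 1.94 ± 1.85 FPKM in KO and 7.93 ± 1.58 FPKM in WT, with no overlap of the libraries (log2 change -1.82, limma adjusted p = 0.109).

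Among 13 pericentral genes tested, the median log2 change was -0.66 and 3 were lower in KO, against 0.355% of all genes tested. These were Oat, Tbx3, a transcription factor, and Lhpp, a phosphatase. Oat was already counted among the other amino acid genes. The pericentral list, too, was chosen with earlier results of these data known, so the count describes it and is no test of the zone. Glul, the glutamine synthetase that captures leftover ammonia beside the central vein, was at 61.0, 30.3, 25.6 and 26.1 FPKM in KO 1 to KO 4, against 64.1, 33.5, 59.4 and 60.5 FPKM in WT 1 to WT 4. KO 1 and WT 2 each went with the other group, and Glul did not pass the test (log2 change -0.64, limma adjusted p = 0.563). The difference between the zones was not tested.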

How the data were processed

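RNA of 8 mouse liver samples (4 KO, 4 WT) was extracted with Trizol and a miRNeasy kit and made into Nugen libraries, per the labels' protocols. The authors deposited FPKM values per gene, and the submitters' processing notes name TopHat, edgeR and mm10 without versions. Which program computed FPKM, from which gene models, and whether reads were counted by strand, is not given in the sources used here. Such values depend on the total of each library, and the 10 most abundant genes held 40.9 to 50.4% of it.

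Columns were matched to samples by name. Genes with a mean of at least 1 FPKM were compared as log2(FPKM + 1), which understates changes of low genes, with limma 3.58.1 in R 4.3.3 (intensity trend, two-sided) and Benjamini-Hochberg adjustment over 11266 genes. Count tests were not run, since whole reads could not be rebuilt: at the estimated depth, 57.5 to 61.6% of low values were whole reads to within 0.1, against 20% by spacing alone, and a doubled depth would serve as well. The precision at a given FPKM is therefore known only from the spread of the libraries. Coordinates came from GENCODE M21 (GRCm38, which is mm10), to which 99.4% of gene IDs matched. Promoters came from RefSeq, using the earliest listed start of each gene. Tables and plots were made with Python 3.11.15, pandas 2.3.3 and matplotlib 3.10.9, and the fit was tested on simulated data.

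All 44 genes could be named, with Arid1a, other amino acid genes past the threshold, and up to 4 genes of each context list past it or with the smallest p. Cyp4a10, Dbp, Glul, Oat and Pck1 were given as values, and Per3 and Arntl were named for their values in WT 4. Other amino acid genes that did not pass were picked for their small p, with their values known. The members and lists were chosen with earlier results of these data known. Alternatives were other pseudocounts, filters and scalings, no trend, a replicate block and leaving out each library.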

Additional observations from a re-analysis of the deposited data

Results flagged for a closer look

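Single libraries stood apart from the other 3 of their group, by a gap that exceeded the 95% critical value of Dixon's test, in 6 of 92 groups checked. Chance alone gives about 1 in 20. For Bhmt, KO 4 was at 365 FPKM and the other KO libraries at 324 to 329.8 FPKM, while WT 4 was at 858 FPKM and the other WT libraries at 155 to 218 FPKM. Cth in KO 1 was at 73.7 FPKM, below 131 to 136 FPKM in the other KO libraries. Hal in WT 2 was at 70.2 FPKM, above 37.5 to 41.1 FPKM in the other WT libraries. Fah in WT 3 was at 154 FPKM, below 187 to 193 FPKM in the other WT libraries. Oat in WT 4 was at 149 FPKM, above 58.8 to 68.3 FPKM in the other WT libraries.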

How the results depend on the processing

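Under every alternative run, 0 of the 44 genes passed the threshold, and the smallest limma adjusted p of any was 0.0647, for Sds without WT 3. Of 703 values of the 44 genes under an alternative, 675 kept their direction and 28 reversed it, in 11 genes. With equal sums of FPKM the log2 changes of Glud1, Hal, Ftcd, Kmo and Pck1 were -0.08, -0.01, -0.01, -0.03 and -0.05, and with median ratio scaling those of Tat and Gstz1 were 0.02 and 0.02. Over fits without 1 library, the log2 change ran from -0.19 to 0.12 for Otc, -0.21 to 0.06 for Nags, -0.16 to 0.20 for Glud1, -0.33 to 0.30 for Agxt, -0.22 to 0.22 for Tat, -0.09 to 0.06 for Gstz1, -0.15 to 0.05 for Fah, -0.04 to 0.19 for Kmo, -0.29 to 0.04 for Mat1a, -0.08 to 1.59 for Dbp and -0.21 to 0.23 for Pck1. Among all genes, 46 were higher and 40 lower in KO; these were 14 and 13 with a minimum of 5 FPKM, which tests fewer genes, 27 higher with a pseudocount of 5 FPKM and 26 lower with no filter. Without 1 library 20 to 92 were higher and 14 to 44 lower, and every library except WT 4 moved a count by over 1.5 times. Of the other amino acid genes, 1 was higher with median ratio scaling (Ccbl1) and 0 to 1 without 1 library; 0 were lower with no filter or the replicate block and 0 to 1 without 1 library, Oat being lost without KO 3 or KO 4. With the replicate number as a block, 16 genes were higher and 8 lower. The numbers were not shown to pair samples, since same-numbered libraries correlated at 0.0964, -0.0668, 0.0151 and 0.25. The cause of these shifts was not tested. With 4 libraries a group, the median SE of the 44 log2 changes was 0.22, against 0.24 over all genes tested.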

Other observations

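Regulators of amino acid catabolism, 19 nuclear receptors, transcription factors, coactivators and signalling genes, had a median log2 change of -0.08, and 0 passed the test. Nr1h4, the bile acid receptor FXR, had the smallest p of them, at 20.1 ± 4.28 FPKM in KO and 29.8 ± 7.24 FPKM in WT (mean ± SD, n = 4; log2 change -0.54, limma adjusted p = 0.491). Of 15 genes of the fasting and glucocorticoid response, 0 passed. G6pc, which releases glucose from its phosphate, was at 48.0, 35.1, 71.3 and 61.5 FPKM in KO 1 to KO 4, against 134, 88.7, 127 and 184 FPKM in WT 1 to WT 4. The groups did not overlap (log2 change -1.29, limma adjusted p = 0.0892). Pck1, which opens glucose synthesis from the same carbon skeletons, averaged 624 ± 126 FPKM in KO and 623 ± 222 FPKM in WT (log2 change 0.06, limma adjusted p = 0.980).

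WT 4, in which Bhmt, Cbs and Oat were highest, also stood apart for clock genes and a fasting gene. Dbp was at 20.8, 58.9, 25.8 and 43.3 FPKM in KO 1 to KO 4, against 42.4, 49.3, 22.6 and 0.569 FPKM in WT 1 to WT 4. Cyp4a10 was at 16.5, 44.3, 16.7 and 5.93 FPKM in KO 1 to KO 4, against 54.3, 47.3, 41.8 and 317 FPKM in WT 1 to WT 4. The 13 listed clock and output genes, Dbp among them, summed to 65.73 FPKM in WT 4. Their sums were 196.3, 201.4 and 163.5 FPKM in WT 1 to WT 3, and 131 to 216 FPKM in KO. Single clock genes differed in direction, with Per3 lowest in WT 4 at 0.455 FPKM and Arntl highest there at 2.46 FPKM. Of 11 clock genes tested for KO against WT, 0 passed. The times of collection and feeding are not given in the labels, and the part of either in the values of WT 4 was not tested.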
